A study of Homo sapiens with 27 samples.

Results

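Aminoacyl-tRNA synthetases load each transfer RNA with its amino acid, and the 35 human genes considered here encode the cytosolic and the mitochondrial sets of these enzymes. They were taken as a list of gene symbols, 19 cytosolic and 16 mitochondrial, by the enzyme each encodes. Of the 35, 30 had a named probe on the array and all 30 were above background, 18 cytosolic and 12 mitochondrial, among 12637 genes tested in all. CARS1, CARS2, FARS2, PARS2 and VARS2 had no named probe and were not analysed here. The study cultured SK-N-BE(2)c cells, an established line from a human neuroblastoma, in hypoxia with PP242 or with its solvent DMSO. PP242 blocks the kinase mTOR in both of its complexes. Total RNA was measured on 27 Illumina bead arrays. The groups were PP242 in hypoxia at 24, 48 and 72 h (4 arrays each), DMSO in hypoxia at 24 h (3 arrays), 48 h and 72 h (4 arrays each), and a starting point labelled control at 0 h (4 arrays), for which the labels state neither DMSO nor hypoxia. A single line in culture was used, and no group combined PP242 with normal oxygen, so an effect of PP242 outside hypoxia was not measured. The labels number the samples 1 to 4 without saying that they were separate cultures, so the p-values measure the spread between these samples, which may be technical.

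The cytosolic enzymes, with symbols ending in 1 except for the subunits FARSA and FARSB, serve translation of nuclear-encoded messages, while the enzymes ending in 2 are imported into mitochondria and charge the tRNAs for the proteins made there. Several cytosolic synthetases (EPRS1, IARS1, KARS1, LARS1, MARS1, QARS1 and RARS1) assemble into one multi-synthetase complex held by scaffold proteins, and the others act as free enzymes. The KARS1 and GARS1 genes encode both the cytosolic and the mitochondrial enzyme, and both were counted in the cytosolic class alone. Uncharged tRNA activates the kinase GCN2, which raises translation of the transcription factor ATF4, and many cytosolic synthetase genes are known ATF4 targets. mTOR complex 1 is a further known activator of ATF4.

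Levels are given as log2 of background-corrected, quantile normalized intensity, and differences between groups as log2 changes. They come from 1 linear model of the 7 group means (limma), with p-values adjusted over all 12637 genes and a threshold of 0.05. The mean deposited intensity of the tested members ran between 113.7 and 3719 for cytosolic enzymes (median 1305.2) and between 125 and 1031 for mitochondrial enzymes (median 409.5). A probe's level was not set against that of another probe. FARSB and WARS2 were the dim members, FARSB above background on 2 or 3 of 4 arrays in 4 groups and WARS2 on 3 of 4 control arrays and 2 of 3 DMSO arrays at 24 h. Array medians lay between 98 and 113 intensity units, and the arrays detected 20729 to 22843 probes. Of 12 sympathoadrenal markers of the labelled cell type, 10 were tested, and the summed linear intensity of the 10 lay between 45300 and 65610 across all arrays. The brightest markers, such as MYCN and CHGA, weigh most in that sum. With PP242 against DMSO, 2, 1 and 3 of the 10 were called higher and 0, 0 and 1 lower at 24, 48 and 72 h. Of all genes, 10.4%, 4.43% and 3.42% were called higher and 11.3%, 5.78% and 5.48% lower. At 72 h ELAVL4 was at 8.04 in PP242 and 6.97 in DMSO, and STMN2 at 13.22 and 13.63. Of 12 markers of other cell types, 5 were tested (CD14, COL1A1, DCN, EPCAM and HBB), 4 were not above background and 3 had no named probe. The summed intensity of these 5 was between 192.04 and 288.9 on the PP242 arrays, against 299.1 to 534.0 on the DMSO arrays and 361.0 to 456.6 on the control arrays. It was lower on every PP242 array than on every DMSO array, and DCN, a matrix proteoglycan gene, was at 5.40 ± 0.21 in PP242 and 7.95 ± 0.46 in DMSO at 48 h (SD, n = 4 each). CD14 was lower at 24 h (-0.90), EPCAM had changes of 0.30, 0.16 and 0.20 that did not pass, and COL1A1 and HBB lay near background on most arrays. The part of these markers in the results below was not tested.

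With PP242, synthetases were called in both directions at 24 h, as were genes in general, and the calls at 48 and 72 h were all falls in the cytosolic class. At 24 h, 3 of 18 cytosolic enzymes rose and 3 fell, and 3 of 12 mitochondrial enzymes rose and 1 fell, against 10.4% of all genes called higher and 11.3% called lower. At 48 h, 2 cytosolic enzymes fell and none rose, and no gene of the mitochondrial class passed (all genes: 4.43% higher, 5.78% lower). At 72 h, 4 cytosolic enzymes fell and none rose, again with no gene of the mitochondrial class past the threshold (all genes: 3.42% higher, 5.48% lower). The falls at both times included GARS1, which also encodes the mitochondrial glycyl enzyme. Among the mitochondrial enzymes limma gave an unadjusted p under 0.05 to 2 at 48 h and to 1 at 72 h. The median change of the cytosolic enzymes was -0.16, -0.10 and -0.23 at 24, 48 and 72 h, and that of the mitochondrial enzymes 0.13, -0.06 and -0.14, beside medians of 0.00, -0.01 and 0.00 over all genes. Scaling every array to one median in place of quantile normalization moved the mitochondrial median at 24 h below 0, to -0.17, and the split at 24 h to 2 higher and 10 lower. Under that scaling 2782 of all 12637 genes were called at 24 h, 23.8% of them higher. Samples with the same number deviated together, and blocking on that number gave calls for 15 members at 24 h (9 higher and 6 lower), 8 at 48 h (2 higher and 6 lower) and 6 at 72 h (all lower). The blocked fit called 29.9%, 19.8% and 17.1% of all genes at these times.

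**Figure D1:**
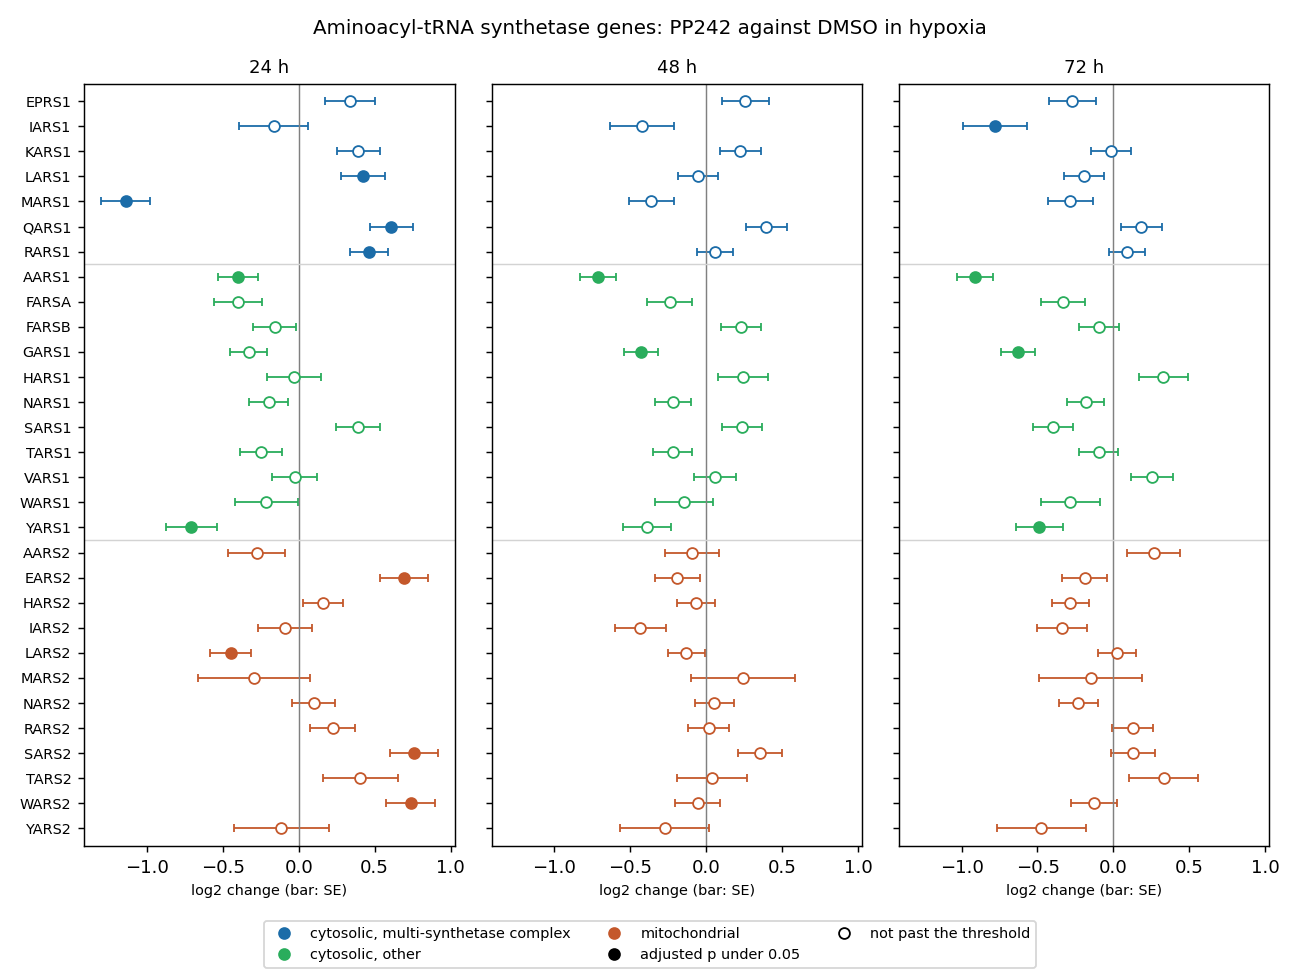
Log2 change of each of the 30 tested synthetase genes, PP242 against DMSO in hypoxia, at 24, 48 and 72 h (x axis), with 1 gene per row, grouped as members of the multi-synthetase complex, other cytosolic enzymes and mitochondrial enzymes. Bars are the SE of the model and filled points passed the threshold. AARS1 was below 0 at each time, MARS1 had the lowest value at 24 h (-1.14), and the filled mitochondrial points stand at 24 h alone.

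AARS1, the free alanyl-tRNA synthetase, was the member that PP242 lowered at all 3 times. At 24 h the PP242 arrays measured 10.98, 10.98, 10.99 and 11.07, against 11.31, 11.39 and 11.51 on the DMSO arrays, a change of -0.40 (SE 0.13, adjusted p = 0.0265). At 48 h they measured 10.65, 11.06, 11.12 and 11.22, against 11.55, 11.73, 11.74 and 11.86 in DMSO, a change of -0.71 (SE 0.12, adjusted p = 0.0002). At 72 h the values were 10.95, 10.98, 11.03 and 11.05 in PP242 and 11.81, 11.89, 11.96 and 11.99 in DMSO, a change of -0.91 (SE 0.12, adjusted p = 5.75e-06), so that the PP242 level was 0.532 times the DMSO level. The groups did not overlap at any of the 3 times. No change was detected between the PP242 arrays at 72 h and those at 24 h (adjusted p = 0.997), while the DMSO arrays at 72 h stood 0.51 above those at 24 h (adjusted p = 0.00656). The 24 h call was lost (highest adjusted p = 0.107) without any 1 of 4 arrays (DMSO samples 2 and 3, PP242 samples 1 and 4), whereas the 48 and 72 h calls were kept without each array in turn.

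GARS1, the glycyl-tRNA synthetase of both compartments, fell at 48 and 72 h. PP242 arrays at 48 h measured 11.43, 11.52, 11.59 and 11.73, against 11.90, 11.94, 11.98 and 12.17 in DMSO, a change of -0.43 (SE 0.11, adjusted p = 0.0118). At 72 h they measured 11.36, 11.50, 11.51 and 11.52, against 12.01, 12.03, 12.15 and 12.23 in DMSO, a change of -0.63 (SE 0.11, adjusted p = 0.000326). No PP242 array reached the lowest DMSO array at either time. At 24 h the values were 11.52, 11.52, 11.60 and 11.65 in PP242 and 11.76, 11.84 and 12.10 in DMSO, without overlap, and the change of -0.33 had an adjusted p of 0.0529 in the model and 0.0156 in the blocked fit. The 48 h call was lost without DMSO sample 3 or PP242 sample 1 (highest adjusted p = 0.0538).

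IARS1, the isoleucyl enzyme of the complex, was lower than in DMSO at 72 h. Its mean there was 9.64 ± 0.34 in PP242, beside 9.60 ± 0.62 in the 0 h control (SD, n = 4 each). The PP242 arrays at 72 h measured 9.13, 9.74, 9.78 and 9.90, against 10.24, 10.37, 10.38 and 10.68 in DMSO, with no overlap and a change of -0.78 (SE 0.21, adjusted p = 0.0171). At 48 h the PP242 values 9.62, 9.78, 10.02 and 10.19 overlapped the DMSO values 10.08, 10.30, 10.42 and 10.49, with a change of -0.42 (adjusted p = 0.239, or 0.0466 with the block). The change at 24 h was -0.16 (adjusted p = 0.689). A second, dimmer IARS1 probe gave -0.22 at 72 h, the same sign with a smaller size. The 72 h call was lost without DMSO sample 2 or PP242 sample 4, and also with arrays scaled to one median or with the mean of both probes (highest adjusted p = 0.0938).

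MARS1, the methionyl enzyme of the complex, had the largest change of any member, at 24 h. PP242 arrays at 24 h measured 8.31, 8.49, 8.50 and 8.70, against 9.55, 9.60 and 9.77 in DMSO, far from overlapping. The change was -1.14 (SE 0.16, adjusted p = 7.8e-06), or 0.454 times the DMSO level, and it was kept under every alternative run. At 48 h the PP242 arrays spread over 8.43, 9.06, 9.19 and 9.32, against 9.21, 9.31, 9.46 and 9.47 in DMSO, a change of -0.36 (adjusted p = 0.138, or 0.0495 with the block). At 72 h they measured 8.90, 8.96, 9.04 and 9.17, against 9.23, 9.23, 9.26 and 9.48 in DMSO, a change of -0.28 (adjusted p = 0.291). PP242 arrays at 72 h were 0.52 above those at 24 h (SE 0.15, adjusted p = 0.0377).

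The proximal promoters of these 4 genes share a short sequence that the choice of members did not use, shown here because these genes were among the lower ones. TGATGNAA, the core of the composite element that ATF4 binds with a C/EBP partner, was searched on both strands of the RefSeq promoters (250 bases before to 50 after each start site, GRCh38.p14), and the search was added with the PP242 values known. It was found in 1270 of 35116 promoters, or 3.62%, and in at least 1 promoter of 1217 of 27305 genes, or 4.46%. Promoters of 30 of the 35 members were listed, and 7 of 16 cytosolic members and 1 of 14 mitochondrial members held it. The 7 were AARS1, GARS1, IARS1, MARS1, TARS1, NARS1 and CARS1, and the mitochondrial member was YARS2. LARS2, called lower with PP242 at 24 h as given below, had a listed promoter without the motif. The windows of the 6 tested cytosolic members, read along the gene's own strand with the match in capitals, were as follows.
AARS1: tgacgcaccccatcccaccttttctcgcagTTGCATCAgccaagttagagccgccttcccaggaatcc
GARS1: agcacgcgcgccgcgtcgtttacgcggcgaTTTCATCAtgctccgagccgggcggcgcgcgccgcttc
IARS1: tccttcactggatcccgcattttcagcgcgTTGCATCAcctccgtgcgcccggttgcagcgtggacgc
MARS1: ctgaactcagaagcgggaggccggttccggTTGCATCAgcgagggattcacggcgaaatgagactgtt
TARS1: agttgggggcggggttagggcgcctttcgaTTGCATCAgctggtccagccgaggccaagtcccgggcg
NARS1: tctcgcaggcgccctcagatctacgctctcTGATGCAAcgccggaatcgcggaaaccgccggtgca
In 5 of these windows the motif runs against the gene (TTGCATCA or TTTCATCA), and in NARS1 it runs with it. AARS1's window is chr16:70289656-70289723 on the minus strand and GARS1's is chr7:30594815-30594882 on the plus strand. The IARS1 window is chr9:92293673-92293740 (minus), that of MARS1 chr12:57488034-57488101 (plus), that of TARS1 chr5:33440937-33441004 (plus) and that of NARS1 chr18:57621787-57621852 (minus). Counted from the annotated start site, the first base of the match lay at -187 in AARS1, -33 in GARS1, -13 in IARS1, -4 in MARS1, 2 in TARS1 and 14 in NARS1.

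All 6 cytosolic members with the motif had values below 0 in PP242 against DMSO at 24, 48 and 72 h, with medians of -0.29, -0.39 and -0.46, and 2, 2 and 3 of them passed. The search followed these values, so the grouping by motif describes them and carries no test. Scaling the arrays to one median kept all 6 below 0 at each time. At 24 and 48 h that scaling lowered the median of all cytosolic members, to -0.45 and -0.29, so there it could hardly bring a value above 0. Among the 9 tested cytosolic members whose listed promoter lacks the motif, 4, 2 and 6 were below 0, with medians of 0.34, 0.23 and -0.10, and with one median per array those medians were 0.02, 0.06 and -0.09. TARS1 measured 9.82, 10.14, 10.33 and 10.46 in PP242 and 10.34, 10.42 and 10.54 in DMSO at 24 h, with overlapping arrays, and NARS1 10.50, 10.50, 10.51 and 10.51 in PP242 and 10.54, 10.73 and 10.85 in DMSO. Neither passed at any time, with changes between -0.25 and -0.10 for TARS1 and between -0.22 and -0.18 for NARS1. Across all tested genes, 50.5%, 52.4% and 52.0% of 319 genes with it were below 0 at the 3 times, and 12.2%, 8.15% and 9.09% were called lower, against 11.7%, 5.74% and 5.20% of 9628 genes without it. The E-box CACGTG, which MYC proteins bind, was in 2548 promoters (7.26%), in 8.78% of genes, and in those of MARS2, IARS1, CARS2 and EARS2 among the members. A match describes letters in a window and is no measurement of binding.

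**Figure D2:**
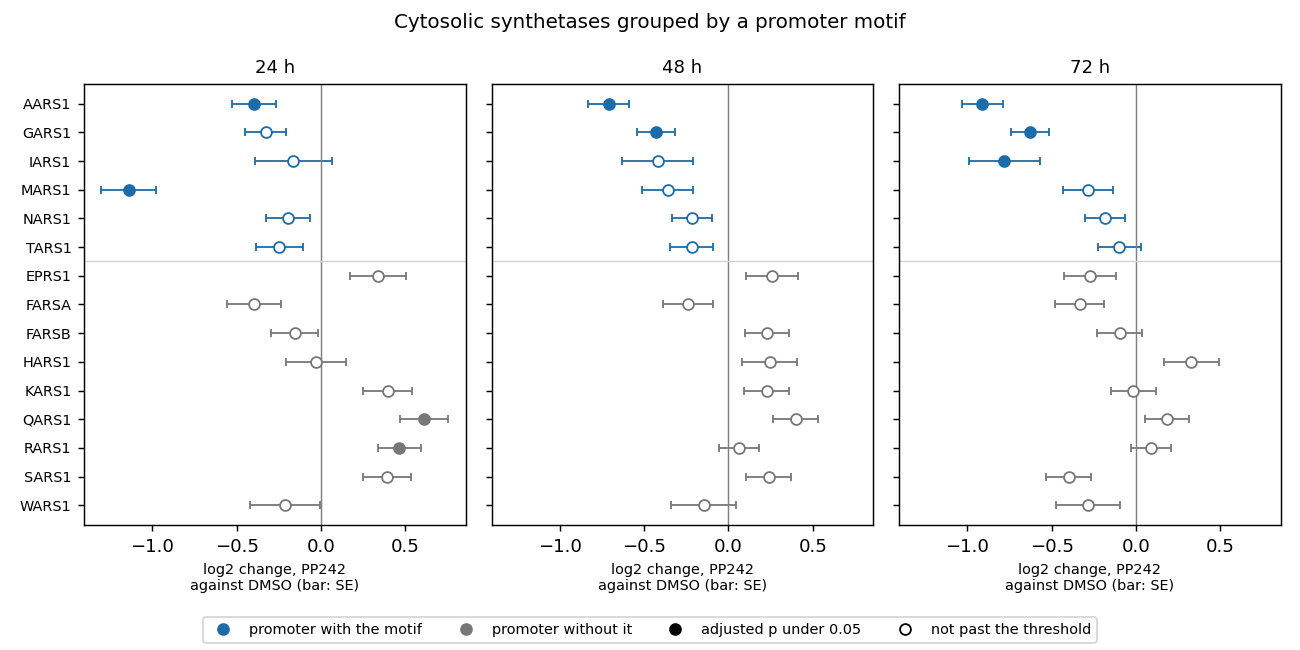
Log2 change, PP242 against DMSO, of the 15 tested cytosolic synthetases with a listed promoter, at 24, 48 and 72 h, with the SE of the model as bars. The 6 genes whose promoter holds the motif stand in the upper rows and all lie left of 0, and the 9 genes without it lie on both sides of 0 (filled: past the threshold). The motif was searched with these values known.

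YARS1, the free tyrosyl-tRNA synthetase, whose promoter was not listed, fell at 24 h. PP242 arrays measured 9.67, 9.84, 9.87 and 10.16, against 10.59, 10.59 and 10.59 in DMSO, without overlap, a change of -0.71 (SE 0.17, adjusted p = 0.00284). This call was kept without each array in turn. At 48 h the change was -0.39 (adjusted p = 0.12, or 0.0138 with the block). At 72 h the values were 9.62, 9.88, 9.93 and 10.01 in PP242 and 10.19, 10.26, 10.33 and 10.60 in DMSO, again separate, and the change of -0.49 (SE 0.16, adjusted p = 0.048) sat at the threshold and was lost without any 1 of the 8 arrays (adjusted p up to 0.157).

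The 24 h rises among cytosolic enzymes were all in the multi-synthetase complex. QARS1, the glutaminyl enzyme, measured 11.38, 11.42, 11.45 and 11.65 in PP242 and 10.76, 10.87 and 10.98 in DMSO, a change of 0.61 (SE 0.14, adjusted p = 0.00246). RARS1, the arginyl enzyme, measured 11.20, 11.55, 11.58 and 11.67 in PP242, against 10.96, 11.06 and 11.09 in DMSO, a change of 0.46 (SE 0.13, adjusted p = 0.00901). LARS1, the leucyl enzyme and a leucine sensor upstream of mTOR complex 1, measured 9.69, 9.94, 9.95 and 10.14 in PP242 and 9.44, 9.50 and 9.58 in DMSO, a change of 0.42 (SE 0.14, adjusted p = 0.0324). Each of these 3 genes had all its PP242 arrays above all its DMSO arrays. QARS1 and RARS1 were kept without each array in turn, while the LARS1 call was lost without any 1 of 5 arrays (DMSO samples 1 and 2, PP242 samples 1, 3 and 4; highest adjusted p = 0.118). With arrays scaled to one median, none of the 3 passed, with changes of 0.28 for QARS1 (adjusted p = 0.0844), 0.12 for RARS1 (adjusted p = 0.63) and 0.09 for LARS1 (adjusted p = 0.765). KARS1, the lysyl enzyme, had a change of 0.39 (adjusted p = 0.0502, or 0.00862 with the block), and EPRS1, the glutamyl-prolyl enzyme, 0.34 (adjusted p = 0.157, or 0.0137 with the block). At 48 h QARS1 changed by 0.40 (adjusted p = 0.0546, or 0.0122 with the block).

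Set side by side, the 7 complex members had a median change of 0.39 at 24 h (3 higher, 1 lower) and the 11 other cytosolic enzymes one of -0.21 (none higher, 2 lower). Of all genes, 10.4% were called higher and 11.3% lower at 24 h. At 48 h the medians were 0.06 and -0.22, and at 72 h -0.19 and -0.28. With one median per array, the complex medians were 0.09, -0.07 and -0.28 and those of the others -0.56, -0.38 and -0.36, so the complex value changed sign at 48 h. Within the complex MARS1 and IARS1 were the members below 0 at 24 h. SARS1, the free seryl enzyme, was the member outside the complex with a positive change at 24 h, at 0.39 (adjusted p = 0.0516, or 0.0364 with the block). FARSA, the catalytic subunit of the phenylalanyl enzyme, had -0.40 (adjusted p = 0.0733, or 0.0273 with the block), and its partner subunit FARSB -0.16 (adjusted p = 0.497). HARS1, VARS1 and WARS1 had changes of -0.03, -0.03 and -0.21 at 24 h and did not pass at any of the 3 times. Of the 3 complex partners, AIMP2 and EEF1E1 were not tested, and the probe of the scaffold AIMP1 was above background on 2, 2 and 1 of 4 PP242 arrays and on 3 of 3, 1 of 4 and 1 of 4 DMSO arrays at 24, 48 and 72 h, too dim for a change to be given.

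**Figure D3:**
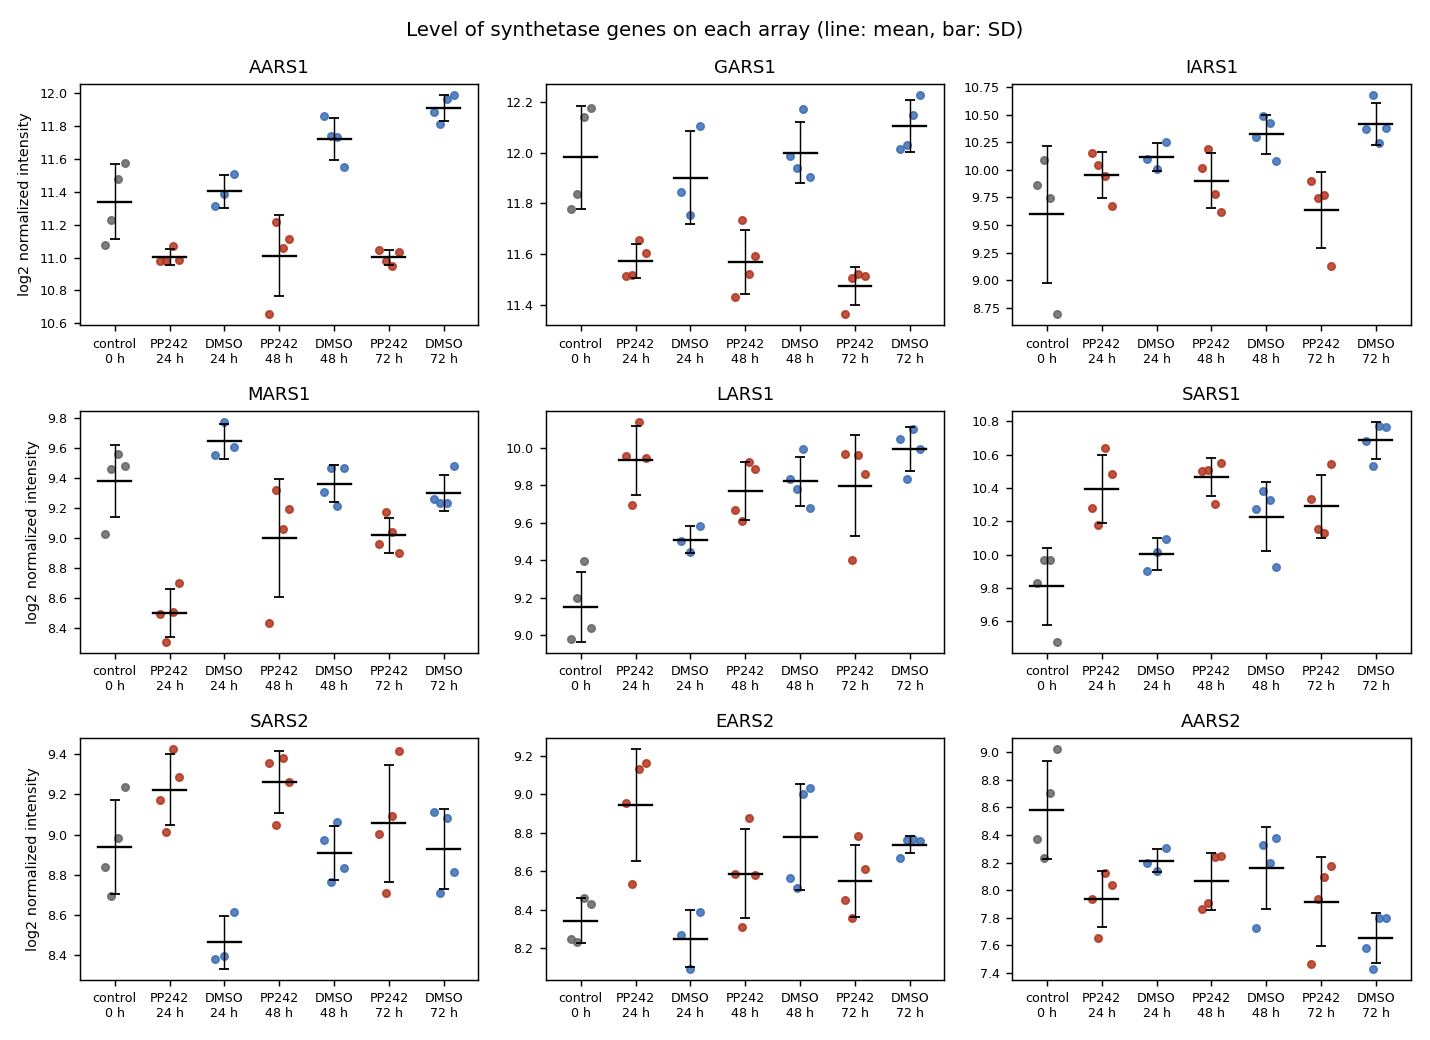
Log2 normalized intensity of 9 synthetase genes on each array, by group, with PP242 and DMSO side by side at 24, 48 and 72 h and the 0 h control at the left. Points are arrays, lines group means and bars SD (n = 4, DMSO at 24 h n = 3). AARS1 and GARS1 stayed low in PP242, LARS1 and SARS1 were high in DMSO at 72 h, and SARS2 and EARS2 were low in DMSO at 24 h.

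The mitochondrial enzymes that PP242 raised in the model were all called at 24 h. SARS2, the mitochondrial seryl enzyme, measured 9.01, 9.17, 9.29 and 9.43 in PP242, against 8.38, 8.39 and 8.62 in DMSO, a change of 0.76 (SE 0.16, adjusted p = 0.000679). WARS2, the tryptophanyl enzyme, measured 5.95, 6.11, 6.18 and 6.54 in PP242 and 5.23, 5.49 and 5.64 in DMSO, a change of 0.74 (SE 0.16, adjusted p = 0.00125) from a dim probe. EARS2, the glutamyl enzyme, measured 8.53, 8.96, 9.13 and 9.16 in PP242, against 8.09, 8.27 and 8.39 in DMSO, a change of 0.69 (SE 0.16, adjusted p = 0.00204). In all 3 the lowest PP242 array stood above the highest DMSO array, and the calls were kept without each array in turn. EARS2 missed the threshold with one median per array (change 0.41, adjusted p = 0.103). LARS2, the mitochondrial leucyl enzyme, moved the other way, with 5.82, 5.93, 6.07 and 6.08 in PP242 and 6.28, 6.45 and 6.54 in DMSO, a change of -0.45 (SE 0.13, adjusted p = 0.0169). The LARS2 call was lost without DMSO sample 1 or 2 or PP242 sample 3 (highest adjusted p = 0.0947).

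At 48 h SARS2 measured 9.05, 9.26, 9.36 and 9.38 in PP242 and 8.77, 8.83, 8.97 and 9.06 in DMSO, nearly separate, with a change of 0.35 (adjusted p = 0.13, or 0.0253 with the block). EARS2 at 48 h measured 8.31, 8.58, 8.58 and 8.88 in PP242 and 8.51, 8.57, 9.00 and 9.03 in DMSO, with a change of -0.19, and WARS2 changed by -0.06. IARS2, the mitochondrial isoleucyl enzyme, measured 9.51, 9.62, 9.64 and 9.75 in PP242 and 10.01, 10.06, 10.07 and 10.12 in DMSO at 48 h, without overlap, and its change of -0.43 passed with the block alone (adjusted p = 0.0287, against 0.102 in the model). At 72 h YARS2, the tyrosyl enzyme, measured 7.95, 8.49, 8.90 and 9.25 in PP242 and 8.94, 9.00, 9.14 and 9.41 in DMSO, overlapping, with -0.47 (adjusted p = 0.386, or 0.027 with the block). The members HARS2, NARS2, RARS2, TARS2, MARS2 and AARS2 did not pass in any PP242 comparison, with changes between -0.29 and 0.41 at 24 h, between -0.09 and 0.24 at 48 h, and between -0.28 and 0.33 at 72 h.

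The PP242 effect itself differed between times for several of these genes, tested as the difference between effects in the same model. Between 48 and 24 h, 1 of 18 cytosolic enzymes had a higher effect and 2 of 12 mitochondrial enzymes a lower one (all genes: 2.68% higher, 2.38% lower). Between 72 and 24 h, 1 cytosolic enzyme had a higher effect, 2 cytosolic enzymes lower ones and 3 mitochondrial enzymes lower ones (all genes: 7.57% higher, 7.63% lower). The effect on MARS1 rose by 0.78 (SE 0.22, adjusted p = 0.036) between 24 and 48 h and by 0.86 (SE 0.22, adjusted p = 0.00721) between 24 and 72 h. The effect on EARS2 changed by -0.88 (SE 0.22, adjusted p = 0.0154) at 48 h and by -0.88 (SE 0.22, adjusted p = 0.00511) at 72 h. WARS2 gave -0.79 (SE 0.22, adjusted p = 0.0318) at 48 h and -0.87 (SE 0.22, adjusted p = 0.00641) at 72 h. At 72 h the differences for SARS2, SARS1 and LARS1 were -0.63 (SE 0.21, adjusted p = 0.0431), -0.79 (SE 0.20, adjusted p = 0.00536) and -0.62 (SE 0.19, adjusted p = 0.0294). SARS1 measured 10.18, 10.28, 10.48 and 10.64 in PP242 and 9.90, 10.01 and 10.09 in DMSO at 24 h, against 10.13, 10.15, 10.33 and 10.54 in PP242 and 10.53, 10.68, 10.76 and 10.77 in DMSO at 72 h, so the PP242 arrays were the higher ones at 24 h and, but for 1 array, the lower ones at 72 h. With the block, 11 members passed between 72 and 24 h (24.8% of all genes), and with one median per array 3 passed (2 higher and 1 lower), without EARS2, SARS1, SARS2 and LARS1. That scaling called 1683 of all 12637 genes between 72 and 24 h, 67.8% of them higher. Of the calls between 48 and 24 h, EARS2 was lost without DMSO sample 2 at 24 h, MARS1 without any 1 of 11 of the 15 arrays and WARS2 without any 1 of 8. Between 72 and 24 h, MARS1, SARS1, EARS2 and WARS2 were kept without each array in turn, LARS1 was lost without any 1 of 6 arrays and SARS2 without any 1 of 10.

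The PP242 arrays gave few calls over time. At 72 h against 24 h, MARS1 rose as above and WARS2 changed by -0.56 (SE 0.15, adjusted p = 0.0231), 1 of 18 cytosolic and 1 of 12 mitochondrial enzymes (all genes: 3.08% higher, 2.83% lower). WARS2 measured 5.47, 5.59, 5.63 and 5.85 in PP242 at 72 h, below each of the 24 h values. With the block, EPRS1 (-0.38, adjusted p = 0.0314) and EARS2 (-0.39, adjusted p = 0.0121) also passed as lower, which made 4 calls (12.6% of all genes). Without 1 of 6 arrays (samples 1, 2 and 3 of either time) MARS1 was no longer called, and without 1 of 5 (PP242 samples 3 and 4 at 24 h, samples 1, 2 and 4 at 72 h) neither was WARS2.

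Cytosolic and mitochondrial enzymes for the same amino acid could be compared in 11 pairs. The cytosolic gene had the higher PP242 change in 2 of 11 pairs at 24 h, in 4 at 48 h and in 2 at 72 h, with median differences, cytosolic minus mitochondrial, of -0.30, -0.12 and -0.16. The leucine pair stood at one end at 24 h, with 0.42 for LARS1 and -0.45 for LARS2. The tryptophan pair stood at the other, with -0.21 for WARS1, whose arrays overlapped, and 0.74 for WARS2. A second WARS1 probe, above background on all 27 arrays, gave -0.43 at 24 h, -0.002 at 48 h and -0.34 at 72 h. For methionine, MARS1 changed by -1.14 and MARS2 by -0.29, with a wide SE of 0.37, and a second MARS2 probe gave 0.01. The serine pair had the same sign at 24 h, 0.39 for SARS1 and 0.76 for SARS2, and so did the arginine pair, 0.46 for RARS1 and 0.22 for RARS2. The widest pair at 72 h was alanine, with -0.91 for AARS1 and 0.27 for AARS2. HARS1 and HARS2 lie head to head on chromosome 5, with 84 bases between the annotated genes, and their changes at 72 h were 0.33 and -0.28.

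Averaged per array, with each gene centred on its mean over the 27 arrays, the cytosolic mean minus the mitochondrial mean was -0.17 ± 0.07 in PP242 and 0.07 ± 0.07 in DMSO at 24 h (SD, n = 4 and 3). The PP242 arrays ran between -0.24 and -0.09 and the DMSO arrays between 0.02 and 0.15, so they did not overlap. At 48 h this difference was -0.04 ± 0.13 in PP242 and 0.00 ± 0.04 in DMSO, and at 72 h 0.00 ± 0.12 in PP242 and 0.15 ± 0.04 in DMSO (SD, n = 4 each), with overlapping arrays at both times. Between samples of the same number, the 72 h difference was lower in PP242 in all 4 pairs. At 48 h it was lower in PP242 in each pair but that of sample 4 (0.138 in PP242, -0.053 in DMSO). These means describe the list and carry no test. In such bulk RNA, fewer cells of a type and less RNA per cell cannot be told apart.

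**Figure D4:**
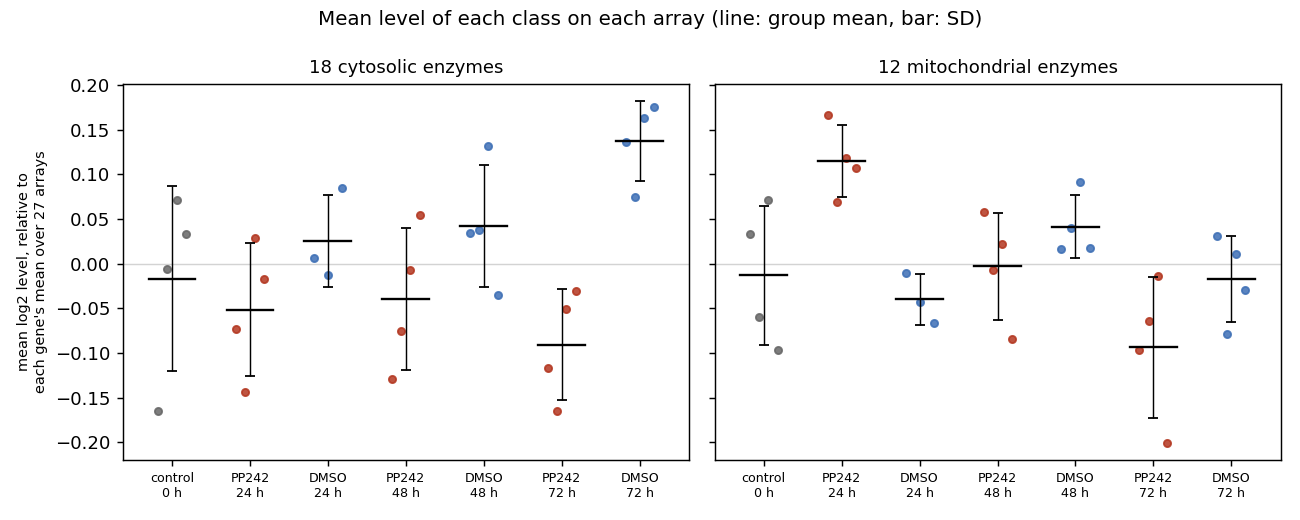
Mean log2 level of the 18 cytosolic and the 12 mitochondrial enzymes on each array, relative to each gene's mean over the 27 arrays, by group. Points are arrays, lines group means and bars SD. Cytosolic means were highest in DMSO at 72 h (0.14 ± 0.05) and mitochondrial means in PP242 at 24 h (0.12 ± 0.04).

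In DMSO under hypoxia, a handful of cytosolic enzymes were above the 0 h control late. At 24 h no member of either class passed in the limma model (all genes: 0.831% higher, 0.182% lower), 6 members had an unadjusted p under 0.05, and with the block 1 passed, SARS2 (-0.47, adjusted p = 0.0443; 2.86% of all genes). At 48 h, 5 of 18 cytosolic and 1 of 12 mitochondrial enzymes rose and none fell (all genes: 6.73% higher, 7.12% lower). With one median per array the split at 48 h was nearly the reverse, 1 higher (LARS1) and 5 lower (HARS1, VARS1, WARS1, YARS1 and AARS2). That scaling called 1683 of all 12637 genes at 48 h, 29.4% of them higher. At 72 h, 5 cytosolic enzymes rose and 1 fell, and 1 mitochondrial enzyme fell (all genes: 11.3% higher, 13.4% lower), or 3 higher and 5 lower with one median per array (3068 genes called, 29.2% of them higher). The cytosolic medians were 0.01, 0.00 and 0.03 and the mitochondrial ones -0.10, 0.06 and 0.16 at 24, 48 and 72 h, against -0.01, -0.02 and -0.01 over all genes, and at 48 and 72 h all 4 class medians were below 0 with one median per array. These comparisons share their DMSO arrays with the PP242 comparisons, and hypoxia, DMSO and time in culture cannot be told apart in them.

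LARS1, in the complex, rose at both later times. DMSO arrays measured 9.68, 9.78, 9.83 and 9.99 at 48 h and 9.83, 9.99, 10.05 and 10.10 at 72 h, against 8.98, 9.04, 9.20 and 9.39 on the control arrays, above all of them at both times. The changes were 0.67 (SE 0.13, adjusted p = 0.000717) and 0.84 (SE 0.13, adjusted p = 1.88e-05), and both were kept under every alternative. EPRS1 measured 11.48, 11.52, 11.66 and 11.66 at 72 h, against 10.36, 10.92, 10.98 and 11.29 in the control, a change of 0.69 (SE 0.15, adjusted p = 0.00118), and at 48 h its change was 0.46 (SE 0.15, adjusted p = 0.0427) with overlapping arrays. IARS1 measured 10.24, 10.37, 10.38 and 10.68 at 72 h, against 8.69, 9.74, 9.86 and 10.09 in the control, a change of 0.82 (SE 0.21, adjusted p = 0.00436), and its 48 h change of 0.73 (SE 0.21, adjusted p = 0.0197) came with overlapping arrays, 1 control array lying far below the other 3. Its second probe gave 0.30 at 72 h and 0.21 at 48 h. EPRS1 and IARS1 at 72 h did not pass with one median per array (highest adjusted p = 0.0586 and 0.105).

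SARS1 had the largest rise of the free enzymes in DMSO under hypoxia against the control. At 72 h DMSO arrays measured 10.53, 10.68, 10.76 and 10.77, against 9.48, 9.83, 9.97 and 9.97 in the control, separate by a wide gap, with a change of 0.87 (SE 0.13, adjusted p = 1.27e-05), or 1.83 times the control. At 48 h they measured 9.93, 10.27, 10.33 and 10.38, overlapping the control, with a change of 0.42 (SE 0.13, adjusted p = 0.0349). AARS1 rose by 0.38 (SE 0.12, adjusted p = 0.032) at 48 h and by 0.57 (SE 0.12, adjusted p = 0.00067) at 72 h, where its DMSO arrays given above all exceeded the control values 11.08, 11.23, 11.48 and 11.58. The 72 h calls of SARS1, AARS1 and LARS1 were kept without each array in turn. At 48 h the calls of AARS1, SARS1, EPRS1, IARS1 and EARS2 were each lost without any 1 of 3 to 6 of the 8 arrays, the DMSO sample 3 among them each time, and without that array 1 member was left. VARS1, the valyl enzyme, fell at 72 h, with 9.95, 9.99, 10.12 and 10.14 in DMSO and 10.35, 10.46, 10.66 and 10.74 in the control, a change of -0.50 (SE 0.14, adjusted p = 0.00733). At 48 h VARS1 changed by -0.40 (adjusted p = 0.0505, or 0.00839 with the block).

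AARS2, the mitochondrial alanyl enzyme, fell at 72 h while its cytosolic counterpart rose. DMSO arrays measured 7.43, 7.58, 7.80 and 7.80, against 8.23, 8.37, 8.70 and 9.02 in the control, all below, with a change of -0.93 (SE 0.18, adjusted p = 0.000203), or 0.525 times the control. At 48 h the DMSO values 7.73, 8.20, 8.33 and 8.38 overlapped the control, with -0.42 (adjusted p = 0.115, or 0.0126 with the block). EARS2 rose at 48 h, 8.51, 8.57, 9.00 and 9.03 in DMSO against 8.23, 8.25, 8.43 and 8.46 in the control, a change of 0.43 (SE 0.15, adjusted p = 0.0497) just inside the threshold, and at 72 h its change of 0.39 was just outside (adjusted p = 0.0517), though the arrays did not overlap. The pairs showed no common direction, the cytosolic gene having the higher hypoxia change in 6 of 11 pairs at each of 24, 48 and 72 h. With the block, 11 members passed at 48 h (6 higher, 5 lower; 23.6% of all genes), the added falls being VARS1, FARSB, WARS1, YARS1 and AARS2.

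**Figure D5:**
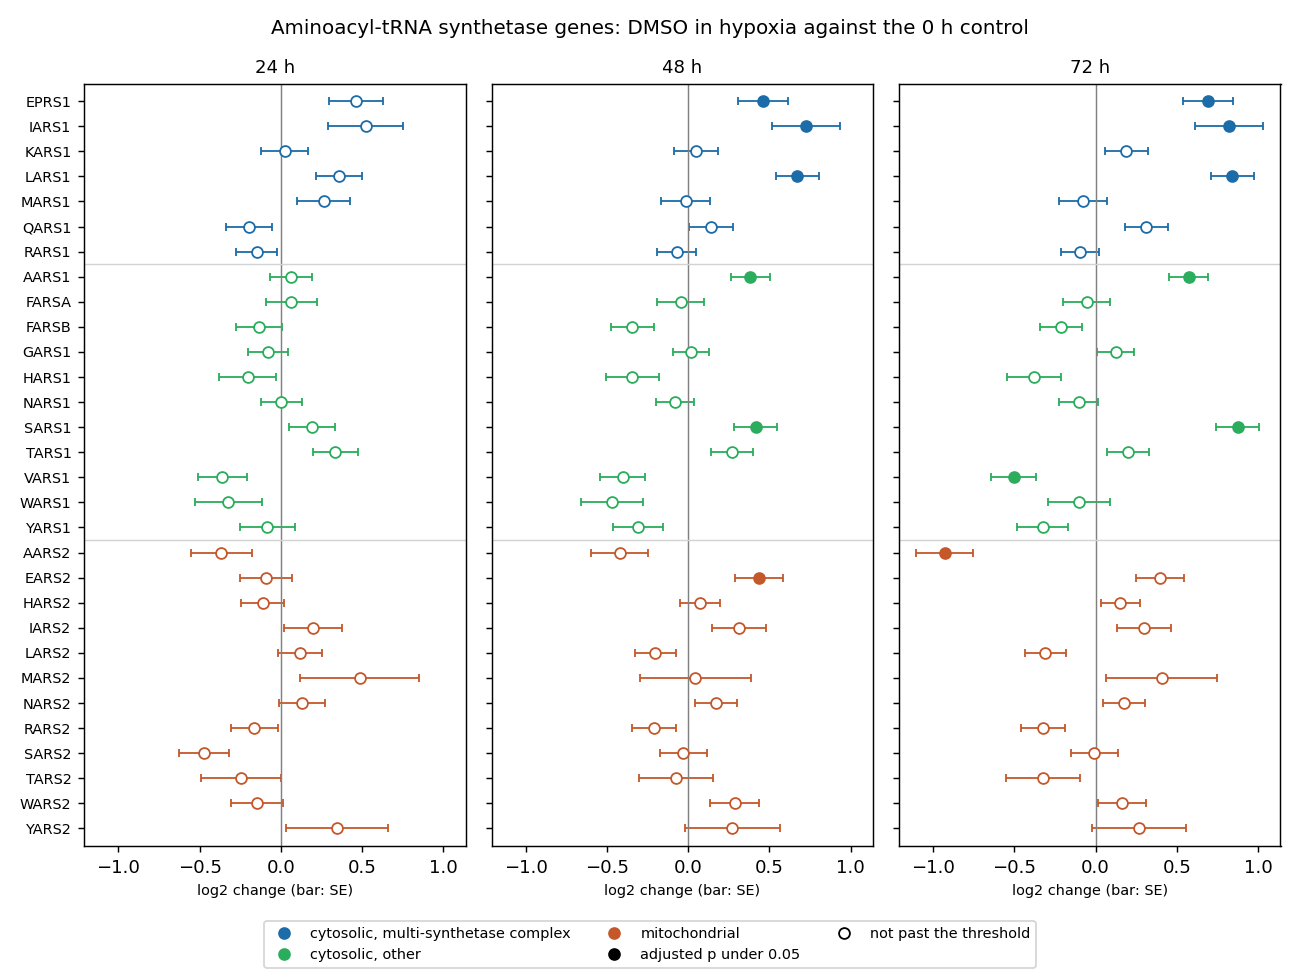
Log2 change of each of the 30 tested synthetase genes in DMSO under hypoxia for 24, 48 or 72 h against the 0 h control (x axis), 1 gene per row, with the SE of the model as bars and filled points past the threshold. No point is filled at 24 h, and SARS1, LARS1, IARS1, EPRS1 and AARS1 stand to the right at 72 h, with VARS1 and AARS2 to the left.

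Between 24 and 72 h of hypoxia in DMSO, 4 cytosolic enzymes rose and none fell, and 2 mitochondrial enzymes rose and 2 fell (all genes: 7.83% higher, 8.78% lower). SARS1 changed by 0.68 (SE 0.14, adjusted p = 0.00121), with the arrays given above. QARS1 measured 11.26, 11.33, 11.39 and 11.51 at 72 h, above its 24 h values, a change of 0.51 (SE 0.14, adjusted p = 0.0141). LARS1 and AARS1 gave 0.48 and 0.51. Of the mitochondrial enzymes, EARS2 measured 8.67, 8.75, 8.76 and 8.77 at 72 h (0.49, SE 0.16, adjusted p = 0.0347) and SARS2 8.71, 8.81, 9.08 and 9.11 (0.46, SE 0.16, adjusted p = 0.0401), each above its 24 h arrays. LARS2 measured 5.82, 5.88, 6.06 and 6.21 (-0.43, SE 0.13, adjusted p = 0.0271) and AARS2 changed by -0.56 (SE 0.19, adjusted p = 0.0401), both below their 24 h arrays. All 6 rises missed the threshold with one median per array, which gave 0 higher and 7 lower. Under that scaling 2308 of all 12637 genes were called, 23.5% of them higher. In the model without DMSO sample 2 at 24 h, 2 calls were left, those of SARS1 and AARS1.

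The 24 h group of DMSO enters several of these results. It holds 3 arrays, and SARS2, EARS2, WARS2, QARS1 and RARS1 had their lowest group mean there. SARS2 was at 8.46 ± 0.13, beside 9.22 ± 0.18 in PP242 at 24 h and 8.94 ± 0.23 in the control (SD, n = 3, 4 and 4). WARS2 had 5.45 ± 0.21 in DMSO at 24 h, against 5.60 ± 0.35 in the control, and EARS2 8.25 ± 0.15, against 8.34 ± 0.12. QARS1 had 10.87 ± 0.11, against 11.06 ± 0.24, and RARS1 11.04 ± 0.07, against 11.19 ± 0.06. None of these genes differed from the control at 24 h past the threshold in the model, and SARS2 did with the block, as given above.

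The other genes of tRNA charging gave few calls with PP242 in the model. The mitochondrial charging partners were QRSL1, GATB and GATC of the amidotransferase that makes glutaminyl-tRNA, and the formyltransferase MTFMT. Of these 4, none passed in the model with PP242 at 24 or 72 h, and MTFMT rose at 48 h (0.40, SE 0.13, adjusted p = 0.0428). With the block 1 of the 4 passed as lower at 24 h and 1 as higher at 72 h (29.9% and 17.1% of all genes called). Between 24 and 72 h in DMSO, 2 of the 4 fell in the model (all genes: 7.83% higher, 8.78% lower). MTFMT was lower in DMSO under hypoxia than in the control, with 7.47 ± 0.10 in DMSO at 72 h and 8.19 ± 0.12 in the control (SD, n = 4 each), a change of -0.73 (SE 0.13, adjusted p = 7.38e-05), and the change at 48 h was -0.67 (SE 0.13, adjusted p = 0.000488). Of 4 elongation and export genes, the elongation factor EEF1A2 rose with PP242 at 24 h (0.49, SE 0.13, adjusted p = 0.00718). EEF1A1 and the mitochondrial factor TUFM did not pass in any of the 10 comparisons of the model. XPOT, the tRNA exporter, had large changes with PP242 (-0.84, -0.57 and -0.98) and a wide spread, 7.42 ± 0.73 in PP242 and 8.40 ± 0.32 in DMSO at 72 h (SD, n = 4 each), and did not pass in the model (adjusted p = 0.184 at 72 h). With the block, 1 of these 4 genes passed as lower at 24 h, where XPOT alone had a change below 0. The block also gave 1 lower call at 72 h and none at 48 h. Of 8 tested genes of amino acid and eIF2 sensing, 2 rose and 1 fell with PP242 at 24 h, 1 rose and 1 fell at 48 h, and 1 fell at 72 h. Over all genes, the shares called higher and lower at these times were 10.4% and 11.3%, 4.43% and 5.78%, and 3.42% and 5.48%. EIF2B4, a subunit of the exchange factor for eIF2, rose at 24 h (0.44) and 48 h (0.40), and the eIF2 kinase gene EIF2AK3 fell at 24 h (-0.51). PPP1R15A, a phosphatase subunit that reverses the eIF2 signal, rose with PP242 at 24 h (0.82) and fell at 48 h (-0.65) and 72 h (-1.54, SE 0.20, adjusted p = 5.22e-06). In DMSO under hypoxia it was above the control at 48 h (1.38) and 72 h (2.07, SE 0.20, adjusted p = 1.29e-08).

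ATF4 and its known targets outside the synthetases were the last list. Of 27 tested (SLC7A11 and GPT2 were not tested), 4 rose and 14 fell with PP242 at 24 h, 1 rose and 10 fell at 48 h, and none rose and 11 fell at 72 h, with medians of -0.59, -0.34 and -0.32. Over all genes, the shares called higher and lower were 10.4% and 11.3%, 4.43% and 5.78%, and 3.42% and 5.48%. At 24 h the falls with the smallest p were those of SLC3A2 (-1.48, SE 0.19, adjusted p = 1.68e-06), a subunit of amino acid transporters, its partner SLC7A5 (-1.05), the serine synthesis enzymes PHGDH (-1.24) and PSAT1 (-1.41), asparagine synthetase ASNS (-1.13) and CHAC1, which was not above background on any PP242 array and is given no fold. The leading falls at 48 h were those of DDIT3 (-2.02, SE 0.24, adjusted p = 1.88e-06), VEGFA (-1.47), SHMT2 (-0.91), PHGDH (-1.25), SLC3A2 (-1.07) and TRIB3 (-1.32). The list for 72 h was DDIT3 (-2.69, SE 0.24, adjusted p = 1.6e-08), ATF5 (-2.78), CEBPB (-1.35), TRIB3 (-2.11), VEGFA (-1.88) and SHMT2 (-0.98). All these falls are against DMSO at the same time, and PP242 was not tested against the control. Group means in PP242 at 72 h and in the control were 6.94 and 6.95 for DDIT3 and 7.41 and 7.81 for ATF5. They were 10.12 and 9.97 for CEBPB and 7.06 and 7.29 for TRIB3. For VEGFA they were 8.86 and 6.80, and for SHMT2 11.25 and 10.85. DDIT3, a stress factor, had 8.15 ± 0.42 in PP242 at 24 h, against 7.03 ± 0.21 in DMSO (SD, n = 4 and 3), and so was higher in PP242 at that time (1.12, SE 0.26, adjusted p = 0.00249). One median per array gave 3 higher and 15 lower at 24 h (2782 of all 12637 genes called, 23.8% of them higher).

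In hypoxia with DMSO, 3, 9 and 10 of these 27 genes were higher than in the control at 24, 48 and 72 h and 0, 0 and 2 lower, with medians of 0.23, 0.27 and 0.25. All genes were called higher in 0.831%, 6.73% and 11.3% of cases and lower in 0.182%, 7.12% and 13.4%. Cytosolic synthetases were called higher in 0, 5 and 5 of 18 cases at the same times. CEBPB, a C/EBP factor, measured 11.47 ± 0.05 in DMSO at 72 h, against 9.97 ± 0.10 in the control (SD, n = 4 each), and 10.12 ± 0.14 in PP242 at 72 h. Between 24 and 72 h in DMSO, 7 of the 27 rose and 3 fell (all genes: 7.83% higher, 8.78% lower). ATF4's own transcript was lower in PP242 at 72 h than at 24 h (-0.61, SE 0.12, adjusted p = 0.00184), and the PP242 effect on it changed by -0.83 (SE 0.17, adjusted p = 0.00112) between these times. With PP242 against DMSO it changed by 0.51 at 24 h (adjusted p = 0.0043) and by -0.32 at 72 h (adjusted p = 0.0976).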

How the data were processed

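Gene expression was measured on 27 single-colour Illumina arrays. The authors deposited non-normalized probe intensity values, one column per array, without detection p-values, and all columns were mapped to samples by name. Steps the authors took before deposit are not given in the sources used here. Intensity values were corrected with normexp (offset 16), taken to log2 and quantile normalized over 48107 probes with limma 3.58.1 in R 4.3.3. A probe was kept if it exceeded the array's background mode at p under 0.05 on at least 3 arrays, a stand-in for the missing detection p-values, which left 31241 probes. Probe names came from the platform annotation: 14822 kept probes had no gene name and were not tested by gene. Each gene was taken from the probe with the highest mean over the arrays, giving 12637 genes.

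One linear model of the 7 group means gave 10 comparisons, with Benjamini-Hochberg adjustment over all genes. The test was also run on simulated arrays drawn independently of each other. That run could not check it where samples of the same number deviate together, as they did here. Alternatives were another scaling, background correction, filter, probe rule, sample set, an intensity trend, each array left out, the sample number as a block, and the authors' deposited value table (median intensity 109.561, within 2.08% of quantile normalized values of the same arrays). Same-numbered samples correlated above 0.1 in 9 of 10 comparisons (lowest 0.124), which is taken as pairing from the data, and not for DMSO at 72 h against the control (lowest 0.0982). Values on every array are given for members with the smallest p in each comparison, up to 4 per class, and for pairs of 1 amino acid with a call, and the others by counts and ranges. Members and lists were chosen with earlier results of these data known.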

Additional observations from a re-analysis of the deposited data

Results flagged for a closer look

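Among 192 groups of 4 arrays examined, 6 had 1 array standing apart from the other 3, where chance gives about 1 in 20. These were AARS1 in PP242 at 24 h (highest 11.07), GARS1 in PP242 at 72 h (lowest 11.36), MARS1 in DMSO at 72 h (highest 9.48), RARS1 in DMSO at 72 h (lowest 10.79), EARS2 in DMSO at 72 h (lowest 8.67) and LARS2 in DMSO at 48 h (highest 6.18), all log2 levels. The rule took 1 gene or class mean at a time and did not flag control sample 4. That array was the lowest control array for IARS1 (8.69), IARS2 (8.96), MARS2 (6.59), YARS2 (7.82) and EPRS1 (10.36). It was the highest for WARS1 (10.46), YARS1 (11.14) and TARS2 (8.50).

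The PP242 effect differed between times by the test of the difference itself. Between 48 and 24 h the differences were 0.78 for MARS1, -0.88 for EARS2 and -0.79 for WARS2. Between 72 and 24 h they were 0.86 for MARS1, -0.79 for SARS1, -0.62 for LARS1, -0.88 for EARS2, -0.87 for WARS2 and -0.63 for SARS2. These differences share the 3 DMSO arrays at 24 h.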

How the results depend on the processing

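No member called in a comparison changed sign under any alternative. Scaling to one median per array moved class medians in most comparisons. With PP242 it gave cytosolic and mitochondrial medians of -0.45 and -0.17 at 24 h and -0.29 and -0.15 at 48 h, with 4 members called at 48 h (1203 of all 12637 genes). In hypoxia it gave 0.098 and -0.043 at 24 h, -0.12 and -0.086 at 48 h, and -0.11 and -0.053 at 72 h. For DMSO at 72 h against 24 h it gave -0.097 and -0.25, for the PP242 effect at 48 h minus 24 h 0.16 and -0.10, and for that at 72 h minus 24 h 0.0067 and -0.031 with 3 members called. It left 1 call for PP242 at 72 h against 24 h (461 of all 12637 genes). The share of higher calls among all genes became 23.8% (from quantile normalized values, 47.9%) with PP242 at 24 h, 19.6% (43.4%) at 48 h, 29.4% (48.6%) and 29.2% (45.7%) in hypoxia at 48 and 72 h, 23.5% (47.1%) for DMSO at 72 h against 24 h, and 64.1% (53.0%) and 67.8% (49.8%) for the effect differences at 48 and 72 h. The cause was not tested.

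The authors' value table gave a cytosolic median of -0.085 with PP242 at 24 h and a mitochondrial median of -0.075 at 72 h. With the sample number as a replicate block, 8 members were called with PP242 at 48 h (19.8% of all genes). In hypoxia the block called 1, 11 and 13 members at 24, 48 and 72 h (2.86%, 23.6% and 34.5% of all genes). It called 4 for PP242 at 72 h against 24 h (12.6%) and 11 for the effect at 72 h minus 24 h (24.8%). Fitting only the groups compared, with fewer samples, left 1 call with PP242 at 48 h, 1 in hypoxia at 48 h and 0 for PP242 at 72 h against 24 h. Over all 12637 genes that fit called 884, 955 and 354, against 1291, 1750 and 747 in the model. Without the filter on dim probes, which adds genes to the adjustment, 3 were called in hypoxia at 48 h and 1 for PP242 at 72 h against 24 h. Of all 17055 genes then tested, 1562 and 649 were called.

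Leaving out each array in turn gave 8 to 11 calls with PP242 at 24 h, 2 at 48 h and 2 to 3 at 72 h, then 0, 1 to 7, and 7 to 8 in hypoxia. It gave 2 to 7 for DMSO at 72 h against 24 h, 0 to 3 for PP242 at 72 h against 24 h, and 1 to 3 and 4 to 8 for the effect differences. Cytosolic medians ran between -0.20 and -0.085 with PP242 at 24 h, -0.17 and -0.020 at 48 h, and -0.068 and 0.077 in hypoxia at 24 h. Mitochondrial medians ran between -0.19 and -0.033 with PP242 at 72 h, -0.15 and -0.025 in hypoxia at 24 h, 0.044 and 0.12 at 48 h, and 0.023 and 0.20 at 72 h. They ran between -0.015 and 0.073 for DMSO at 72 h against 24 h, -0.24 and -0.15 for PP242 at 72 h against 24 h, and -0.29 and -0.17, and -0.34 and -0.18, for the effect differences at 48 and 72 h. FARSB and WARS2 lay near background, where small changes are hard to measure.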
